A study of Mus musculus with 16 samples.

Results

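Chromatin accessibility was compared between tumor cells with Smad4 restored and tumor cells with Smad4 off, with the effect averaged over the pancreas, the liver and the lungs. Such an average can be carried by some of the organs and is not a test that all 3 share a change. All 16 samples of the series entered: 8 with Smad4 restored (Panc_ON, n = 3; Liv_ON, n = 2; Lung_ON, n = 3) and 8 with Smad4 off (Panc_OFF, n = 3; Liv_OFF, n = 2; Lung_OFF, n = 3). Each organ contributed equally to the average, and 136630 nuclear peaks were tested. All cells were KC-shSmad4 pancreatic ductal adenocarcinoma (PDAC) cells, which carry Ptf1a-Cre, Rosa26 rtTA3-IRES-mKate2 and a doxycycline (Dox)-inducible, GFP-linked short hairpin RNA against Smad4 in a homing cassette at Col1a1. Ptf1a-Cre restricts the alleles to the pancreatic lineage, mKate2 marks the cells that were sorted, and the hairpin runs only while Dox is given. Tumor-derived cell lines were injected into the pancreas, the spleen (for liver metastases) or the tail vein (for lung metastases) of female Foxn1nu (nude) mice 6 to 8 weeks old, which lack a thymus. Hosts were fed Dox chow. In the restored groups Dox was withdrawn at 4 weeks (pancreas), 5 weeks (liver) or 6 weeks (lungs) and cells were taken 14 days later (the lung columns name day 15). Each sample came from its own mouse. Dox treatment and Smad4 status changed together in every organ, so that the effects of the drug, of the hairpin cassette and of Smad4 cannot be told apart here.

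SMAD4 is the common partner of the receptor-activated SMAD proteins. TGFβ and related ligands bind receptor kinases, which phosphorylate SMAD2 and SMAD3, and these enter the nucleus with SMAD4 and act on genes together with other transcription factors such as AP-1 and RUNX proteins. SMAD4 is often lost in PDAC, where TGFβ signaling can arrest or kill epithelial cells and can also drive matrix production and epithelial–mesenchymal transition (EMT). ATAC-seq cuts accessible DNA with a transposase, and a peak is a stretch where cuts accumulate, often a promoter or an enhancer.

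Between 22495044 and 37510981 reads per sample fell in nuclear peaks, with a median of 36 to 76 reads per peak. Reads in peaks did not separate the 2 states (mean of restored minus off over organs 0.305 M reads, exact permutation test within organs, two-sided, p = 0.886). The mitochondrial share of the table was 0.387 percentage points lower with Smad4 restored (p = 0.0383 by the same exact permutation test, adjusted over 3 measures p = 0.0575). Sample Lung_OFF_1 stood apart on distal chromosome 6 (2411 peaks), where its log2 level was a median of 1.76 above the other Lung_OFF samples. Peaks there were not eligible to be named. The Smad4 start site checks nothing about the knockdown, since the hairpin acts on the RNA. The peak over it had 747 ± 30.8 normalised counts in Panc_OFF and 702 ± 30.8 in Panc_ON (SD, n = 3), 1049 ± 98.2 in Liv_OFF and 939 ± 71.8 in Liv_ON (SD, n = 2), and 766 ± 36.2 in Lung_OFF and 803 ± 46.6 in Lung_ON (SD, n = 3). Averaged over organs this was a log2 fold change of −0.06 ± 0.06 (SE, adjusted p = 0.596), and Smad4 had no called peak among 9.

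The sequences of the leading peaks are shown first, since motif shares are compared between raised and lowered peaks later in the text. Each line is the central 300 bases of a peak on the plus strand of GRCm38.p6, and capitals mark matches to the 12 motifs searched. The first 3 peaks were higher and the next 3 lower with Smad4 restored. The last 2, chosen after their values were seen, are the peaks of smallest p among those without overlap in any organ that held a SMAD palindrome and were higher, or held an HNF4 motif and were lower.
Tiam2: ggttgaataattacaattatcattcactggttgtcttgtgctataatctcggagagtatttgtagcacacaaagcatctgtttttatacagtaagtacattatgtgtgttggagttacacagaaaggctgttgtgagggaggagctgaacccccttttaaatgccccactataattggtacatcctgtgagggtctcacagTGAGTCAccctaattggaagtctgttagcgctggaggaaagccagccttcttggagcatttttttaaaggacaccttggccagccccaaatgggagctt
Parva: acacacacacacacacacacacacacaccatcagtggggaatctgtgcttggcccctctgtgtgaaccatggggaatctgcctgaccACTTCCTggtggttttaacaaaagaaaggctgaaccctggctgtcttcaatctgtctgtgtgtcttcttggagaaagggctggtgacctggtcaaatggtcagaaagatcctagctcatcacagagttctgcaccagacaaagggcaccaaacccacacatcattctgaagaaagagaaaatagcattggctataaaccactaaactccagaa
Lpin2: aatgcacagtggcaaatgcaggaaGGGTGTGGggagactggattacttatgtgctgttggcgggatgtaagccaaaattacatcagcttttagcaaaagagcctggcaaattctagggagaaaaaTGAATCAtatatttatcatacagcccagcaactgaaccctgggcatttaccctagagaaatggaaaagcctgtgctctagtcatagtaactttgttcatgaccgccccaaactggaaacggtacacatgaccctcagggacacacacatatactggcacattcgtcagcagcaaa
Hils1 (beside Col1a1): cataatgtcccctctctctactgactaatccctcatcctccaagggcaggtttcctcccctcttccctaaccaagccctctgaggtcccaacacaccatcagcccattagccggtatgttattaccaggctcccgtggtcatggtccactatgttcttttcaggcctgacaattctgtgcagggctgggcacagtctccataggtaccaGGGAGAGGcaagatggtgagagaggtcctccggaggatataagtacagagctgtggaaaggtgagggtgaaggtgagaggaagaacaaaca
Gli2: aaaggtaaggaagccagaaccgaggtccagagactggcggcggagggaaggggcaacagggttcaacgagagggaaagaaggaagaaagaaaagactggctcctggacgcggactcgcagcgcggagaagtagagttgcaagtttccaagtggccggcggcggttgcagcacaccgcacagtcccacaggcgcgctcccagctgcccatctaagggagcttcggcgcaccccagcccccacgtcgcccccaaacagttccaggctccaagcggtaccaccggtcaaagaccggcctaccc
Slc29a3: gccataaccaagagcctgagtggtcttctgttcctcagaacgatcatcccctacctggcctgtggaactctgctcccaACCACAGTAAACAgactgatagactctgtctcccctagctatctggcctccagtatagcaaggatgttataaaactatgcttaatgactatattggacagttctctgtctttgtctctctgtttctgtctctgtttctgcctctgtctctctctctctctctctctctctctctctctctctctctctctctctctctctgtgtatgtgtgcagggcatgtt
Caprin1: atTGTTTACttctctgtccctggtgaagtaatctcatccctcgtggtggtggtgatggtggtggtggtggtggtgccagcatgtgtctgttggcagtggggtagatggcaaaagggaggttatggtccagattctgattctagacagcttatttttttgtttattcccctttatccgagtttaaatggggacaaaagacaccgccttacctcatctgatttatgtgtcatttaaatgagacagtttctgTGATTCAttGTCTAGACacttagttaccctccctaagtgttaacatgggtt
Slc39a11: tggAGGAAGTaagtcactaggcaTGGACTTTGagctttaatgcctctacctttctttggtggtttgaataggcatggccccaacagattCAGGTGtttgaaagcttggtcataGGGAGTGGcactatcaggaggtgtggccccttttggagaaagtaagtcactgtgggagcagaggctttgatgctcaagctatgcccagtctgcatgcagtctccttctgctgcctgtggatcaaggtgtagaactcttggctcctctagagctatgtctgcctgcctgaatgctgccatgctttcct

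The Tiam2 window (chr17:3442414-3442713) held 1 AP-1 motif, and the Lpin2 window (chr17:71124249-71124548) held 1 AP-1 and 1 KLF motif. The Parva window (chr7:112407948-112408247) held only an ETS motif. The window beside Col1a1, nearest the start of Hils1 (chr11:94954656-94954955), held 1 KLF motif. The Gli2 window (chr1:119052658-119052957), which lies inside the gene just past its start, held none of the 12. The Slc29a3 window (chr10:60749332-60749631) held 1 RUNX and 1 FOX motif. The Caprin1 window (chr2:103870136-103870435) held AP-1, FOX and the SMAD palindrome. The Slc39a11 window (chr11:113569200-113569499) held HNF4, KLF, ETS and E-box motifs.

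Restoration of Smad4 raised accessibility at 4938 peaks and lowered it at 4105, in all 9043 of 136630 nuclear peaks (6.62%; 3.61% higher and 3.0% lower). Peaks were called where the log2 fold change was 0.58 or more in size with adjusted p up to 0.1 (limma on log2 of normalised count + 1). The median log2 fold change was 0.85 among raised peaks and −0.81 among lowered peaks, against 0.01 over all peaks. The count moved with single liver and lung samples: leaving out Lung_OFF_1 gave 16283, Lung_OFF_2 5313, Liv_OFF_1 3774 and Liv_ON_1 3513. It was 425 without the liver, 476 without the pancreas and 14394 without the lungs.

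Tested one organ at a time (limma, same thresholds), 4675 peaks (3.42%) were called for pancreas, 752 (0.550%) for liver and only 5 (0.00366%) for lungs. For lungs alone, 9720 peaks had an unadjusted p under 0.05. Most peaks raised on average had a fold change above 0 in each organ, which the average itself favors. Their median log2 fold change was 0.71 (pancreas), 1.25 (liver) and 0.58 (lungs), and 4568 of 4938 (92.5%) were above 0 in all 3 organs. The lowered peaks had medians of −1.07, −0.88 and −0.52, and 3865 of 4105 (94.2%) were below 0 in all 3. Over all peaks, 21.3% were above 0 and 19.5% below 0 in all 3 organs. No peak passed the test of a difference in the restoration effect between organs (limma interaction terms). At an unadjusted p under 0.05 there were 7171 peaks for liver against lungs, 5403 for liver against pancreas and 14973 for lungs against pancreas. With no effect at all, a fraction of 0.05 of the 136630 peaks tested would be expected to pass this unadjusted limit. The same holds for the count in lungs alone. In level, the raised peaks started lowest in the liver, where the median normalised count was 16.8 in Liv_OFF and 43.0 in Liv_ON, compared with 65.5 and 111 in the pancreas and 58.1 and 87.5 in the lungs. The lowered peaks started highest in the liver, with 117 in Liv_OFF and 59.9 in Liv_ON, compared with 53.1 and 24.9 in the pancreas and 61.5 and 40.1 in the lungs.

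**Figure D1:**
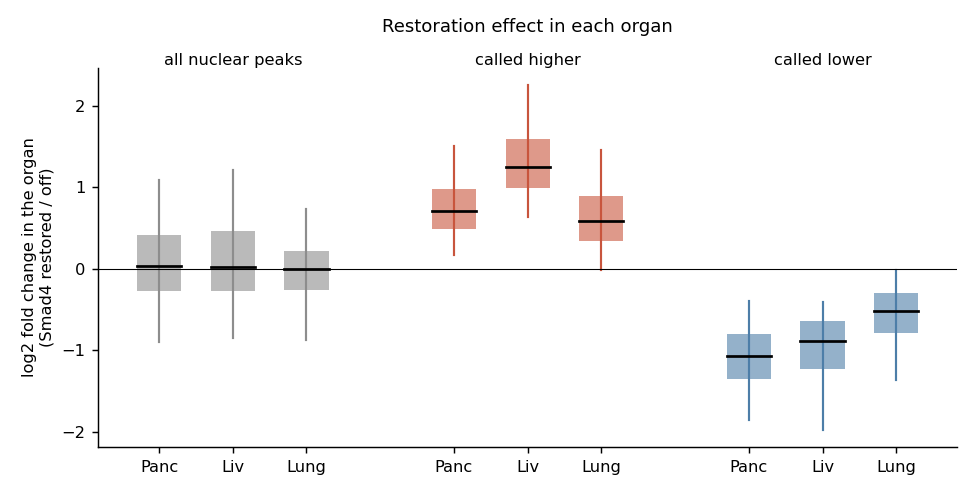
Distribution of the log2 fold change (Smad4 restored over off) within each organ for all nuclear peaks, the 4938 called higher and the 4105 called lower on average. Boxes span the quartiles, black lines are medians and whiskers run from the 5th to the 95th percentile; the lungs moved least in both sets, with medians of 0.58 and −0.52.

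Without reference to the fit, 836 peaks (0.612%) were higher in every restored sample than in every Smad4-off sample of the same organ, in all 3 organs, and 779 (0.570%) were lower. Of these, 523 were also called higher and 567 called lower. Leaving out a sample can only keep or raise the number of peaks without overlap, since fewer samples must be separate. It rose most for single lung samples, to 6032 in all without Lung_OFF_1, 2746 without Lung_ON_3 and 2507 without Lung_OFF_3, against 1615 with every sample.

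The changes lay away from promoters. Promoter peaks (within 1000 bp of a protein-coding start site) made up 10.8% of all peaks, but 68 of the raised peaks (1.38%) and 194 of the lowered peaks (4.73%). Intergenic peaks made up 46.7% of all, 57.1% of the raised and 47.8% of the lowered. No protein-coding start site lay within 100 kb of 31.7% of the raised peaks, compared with 21.0% of all and 17.7% of the lowered. The share of reads in promoter peaks was 1.75 percentage points lower with Smad4 restored on average (pancreas 2.07, liver 2.85 and lungs 0.312 lower). This gave p = 0.0283 by the exact permutation test within organs (two-sided, 2400 arrangements) and 0.0575 adjusted over 3 measures. Without Lung_OFF_2 the difference fell to 1.42 points (permutation p = 0.0608). Raised peaks were slightly poorer in GC (median 43.6%) and lowered peaks slightly richer (46.5%) than all peaks (45.8%), and a correction for GC content gave 3760 higher and 4503 lower peaks.

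Among raised peaks whose samples did not overlap in any organ, the 4 of smallest p lay in introns or exons near Tiam2, Parva, Lpin2 and Ltbp1. Assignment to the nearest start site names a neighbor and does not show which gene a peak acts on. TIAM2 is an exchange factor that activates the small GTPase RAC1. Its intronic peak (chr17:3441284-3443842) had 793, 806 and 738 normalised counts in Panc_OFF and 1093, 1155 and 1192 in Panc_ON, 209 and 213 in Liv_OFF and 440.3 and 429 in Liv_ON, and 806, 636 and 929 in Lung_OFF and 1052, 1073 and 1071 in Lung_ON. The liver was lowest in both states and about doubled, while the average log2 fold change was 0.68 ± 0.07 (SE, adjusted p = 0.000712).

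Parva encodes parvin alpha, which links integrin-bound kinase to actin. Its exonic peak (chr7:112407491-112408703) had 380.0, 424 and 393 normalised counts in Panc_OFF and 475, 470.4 and 573 in Panc_ON, 172 and 170.0 in Liv_OFF and 344 and 361 in Liv_ON, and 353, 335 and 376 in Lung_OFF and 491, 503 and 482 in Lung_ON. The samples of the 2 states were separate in each organ, as the choice of named peaks required, and the change was 0.62 ± 0.08 (adjusted p = 0.00169). Lpin2 encodes lipin 2, a phosphatidate phosphatase of lipid synthesis. The peak in an intron near it (chr17:71124078-71124719) was low in Liv_OFF (12.3 and 13.9) and reached 59.4 and 46.7 in Liv_ON, 140.5, 132 and 153 in Panc_ON against 102, 103 and 88.0 in Panc_OFF, and 104, 167 and 144 in Lung_ON against 81.0, 64.1 and 64.6 in Lung_OFF. Its average change was 1.14 ± 0.15 (adjusted p = 0.0017), and its change within organs was 0.54 (pancreas), 1.93 (liver) and 0.96 (lungs).

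Ltbp1 encodes a latent TGFβ binding protein that stores the ligand in the matrix. The intronic peak (chr17:75105372-75106300) had 225, 157 and 209 normalised counts in Panc_OFF and 308, 332 and 436 in Panc_ON, 107 and 119.8 in Liv_OFF and 250.4 and 259 in Liv_ON, and 281, 272 and 277 in Lung_OFF and 417, 382 and 370.5 in Lung_ON. All restored samples exceeded the off samples of their organ, again as required, with an average change of 0.84 ± 0.11 (adjusted p = 0.00172). The other 8 raised peaks named by the rule were nearest Med15, Csgalnact1, Gpr25, Sh3rf1, Hsd17b12, Csf2, Dad1 and Col6a3. Their average changes ran from 0.64 ± 0.09 (Col6a3, a chain of collagen VI) to 1.32 ± 0.18 (Hsd17b12, an enzyme of fatty acid elongation), with adjusted p between 0.00178 and 0.00276. The Csf2 peak (chr11:54216021-54218302), 31365 bp from the start of the gene for GM-CSF, changed by 0.68 ± 0.09. All 12 stayed called when any single sample was left out, which their choice by smallest p favors. Without the liver, 5 of the 12 (near Tiam2, Parva, Lpin2, Gpr25 and Col6a3) fell short of a call, with changes between 0.33 and 0.75, and without the pancreas the Dad1 peak did (0.89). The Parva and Col6a3 peaks also fell below the fold threshold in a fit of organ plus status, each at 0.56.

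The 12 named lowered peaks changed by between −0.999 and −2.65, and the 12 raised ones by between 0.62 and 1.32. The peak of smallest p in the whole comparison (chr11:94953389-94956222) had 1126, 1144 and 1339 normalised counts in Panc_OFF and 658, 442 and 459.9 in Panc_ON, 1576 and 1268 in Liv_OFF and 239 and 188 in Liv_ON, and 758, 739 and 724 in Lung_OFF and 371, 247 and 293 in Lung_ON. Its average change was −1.75 ± 0.11 (adjusted p = 1.59e-06), and it was called in each organ alone. The nearest protein-coding start site was that of Hils1, 11371 bp away, but the peak begins 347 bp past the end of Col1a1 (chr11:94936224-94953042), the locus into which the hairpin cassette was targeted. The Col1a1 start-site peak (chr11:94935790-94938016) was not called, with a change of 0.21 ± 0.06 (adjusted p = 0.0699). Every sample on Dox was above every sample off Dox at the peak past the gene, also across organs, and any part of the Dox-regulated cassette cannot be told apart from that of Smad4.

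Gli2, the activating transcription factor of the Hedgehog pathway, had the second smallest p. The peak over its start site (chr1:119051311-119054303) had 1051, 957 and 1021 normalised counts in Panc_OFF and 644, 493 and 346 in Panc_ON, 1265 and 1129.9 in Liv_OFF and 325 and 256 in Liv_ON, and 792, 926 and 1021 in Lung_OFF and 250.4, 309 and 356 in Lung_ON. Every restored sample was below every off sample, also across organs. The average change was −1.57 ± 0.12 (adjusted p = 2.07e-05), with −1.07 (pancreas), −2.05 (liver) and −1.59 (lungs), each called in its own organ.

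Slc29a3 encodes an equilibrative nucleoside transporter of lysosomes. Its intronic peak (chr10:60749058-60749904) fell from 88.0, 105 and 104 normalised counts in Panc_OFF to 14.2, 32.2 and 16.1 in Panc_ON, from 88.9 and 44.6 in Liv_OFF to 10.5 and 8.12 in Liv_ON, and from 79.2, 77.2 and 92.2 in Lung_OFF to 13.5, 11.5 and 24.3 in Lung_ON. The change was of like size in each organ (−2.28, −2.64 and −2.33) and averaged −2.42 ± 0.23 (adjusted p = 0.000197). Arl15 encodes a small GTPase of the ARF family. Its intronic peak (chr13:113842075-113843044) fell from 195, 230.5 and 169 in Panc_OFF to 39.1, 30.9 and 18.4 in Panc_ON, from 470.2 and 272 in Liv_OFF to 61.7 and 32.5 in Liv_ON, and from 54.3, 145 and 179 in Lung_OFF to 17.97, 31.6 and 21.5 in Lung_ON. At −2.65 ± 0.26 (adjusted p = 0.000225) it had the largest change, in either direction, of the 9043 called peaks.

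**Figure D2:**
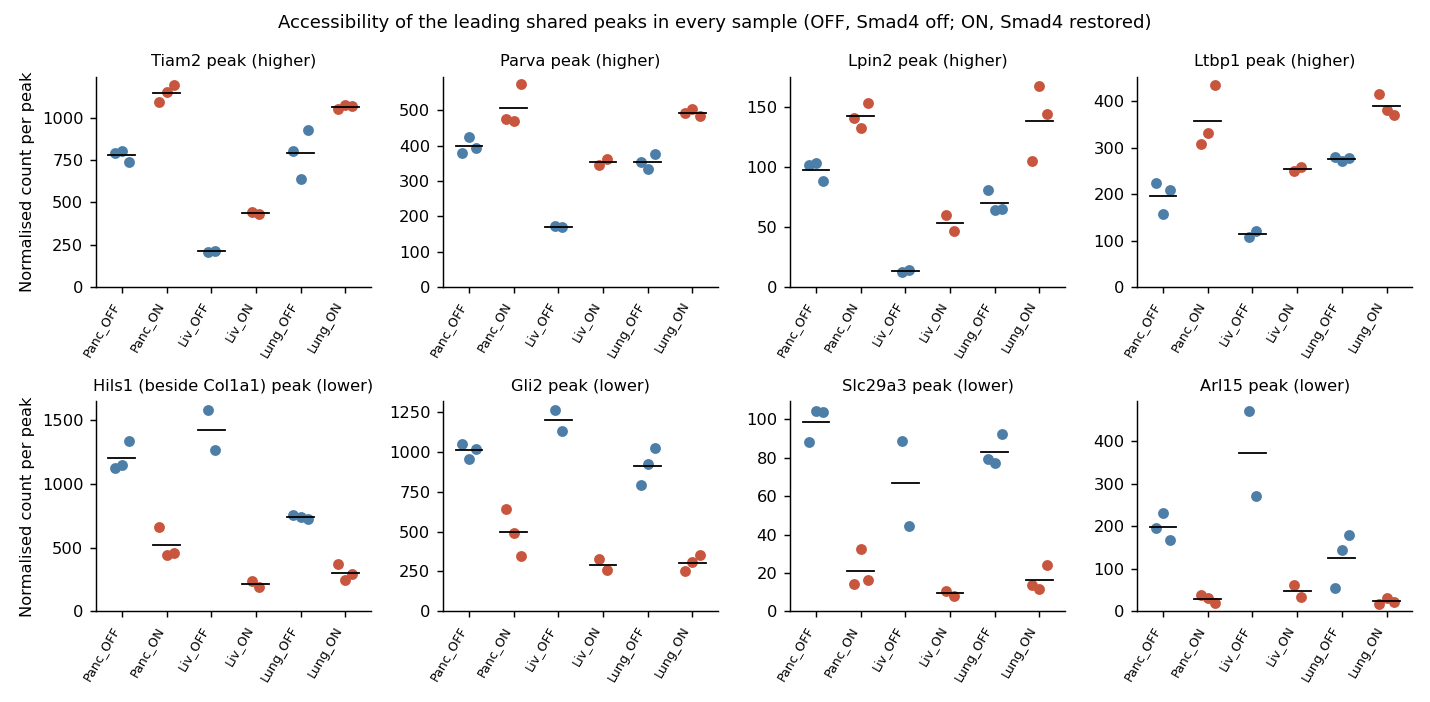
Normalised count per peak in each of the 16 samples for the 4 leading raised peaks (top) and the 4 leading lowered peaks (bottom); points are samples and lines are group means. In each panel the samples with Smad4 off (blue) and restored (red) do not overlap within an organ, which the choice of peaks required. The Gli2 start-site peak ranged from 792 to 1265 with Smad4 off and from 250.4 to 644 with Smad4 restored.

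The other 8 lowered peaks named were nearest Wwc1, Msi2, Lrfn2, Adsl, Arhgap19, Sema3f, Ccdc40 and Iffo2. Wwc1 encodes KIBRA, an upstream component of the Hippo pathway, and its intronic peak changed by −1.07 ± 0.11 (adjusted p = 0.000506). MSI2 is an RNA-binding protein of stem and progenitor cells, and its intronic peak (chr11:88703246-88703958) changed by −2.13 ± 0.23 (adjusted p = 0.000712). Sema3f encodes a secreted semaphorin, and its intergenic peak changed by −1.10 ± 0.13 (adjusted p = 0.00102). The Iffo2 peak, at a promoter, changed by −2.01 ± 0.24 (adjusted p = 0.00116). All 12 lowered peaks were called without any single sample, without any single organ and in the other fits at the same thresholds. Their choice by smallest p favors this. At the stricter fold threshold of 1 the Adsl peak, at −0.999, falls short.

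Called peaks were spread over many genes. A peak was called higher near 2180 genes and lower near 2471 of the 17796 genes with an assigned peak, with 391 genes in both sets. At least 3 raised peaks and none lowered lay near 228 genes, and at least 3 lowered and none raised near 159. The genes with most raised peaks were Ltbp1 (13 of 49), Piezo2 (13 of 26), Csgalnact1 (11 of 16), Rbfox1 (10 of 27) and, tied, Adarb1 (9 of 18), Ccbe1 (9 of 17) and Stard13 (9 of 44). PIEZO2 is a mechanically gated ion channel, CSGALNACT1 starts chondroitin sulfate chains, and CCBE1 is a collagen- and calcium-binding protein of the matrix. The genes with most lowered peaks were Gli2 (16 of 26), Oprm1 (11 of 19), Kalrn (10 of 53), Arhgap26 (8 of 30) and, among those tied at 7, Larp1, Lrfn2, Plekha7 and Ppp1r3c. None of these genes had a called peak in the other direction. Ltbp1, Gli2, Lrfn2 and Ppp1r3c kept counts within 1.5 times of these without Liv_ON_1, Liv_OFF_1, Lung_OFF_1 or Lung_OFF_2, with 11 to 16 at Ltbp1 and 15 to 17 at Gli2. Without Liv_ON_1 there were 5 at Piezo2, 4 at Csgalnact1, 4 at Rbfox1, 3 at Ccbe1, 3 at Stard13, 6 at Oprm1 and 6 at Kalrn, and without Liv_OFF_1 there were 6 at Csgalnact1, 6 at Rbfox1, 4 at Adarb1, 4 at Ccbe1 and 4 at Kalrn. Without Lung_OFF_2 there were 5 at Ccbe1 and 6 at Kalrn, and without Lung_OFF_1 there were 20 at Piezo2. Without Liv_ON_1, Liv_OFF_1 or Lung_OFF_2 there were 4 or 5 at Arhgap26, 4 at Larp1 and 2 to 4 at Plekha7.

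At Gli2, the lowered peaks reached from 81.0 kb before the start of the gene to 97.3 kb into it, where assignment ended (100 kb from a start site). Their changes ran from −0.68 to −2.40, and 13 of the 16 had no overlap between restored and off samples in any organ. All 16 were below 0 in each organ. The largest was an intronic peak 30.9 kb past the start (chr1:119022124-119023216) with a change of −2.40 ± 0.19 (adjusted p = 4.17e-05). Upstream of the gene, 6 of 8 peaks were not called, with changes between −0.32 and 0.12. At Ltbp1, the 13 raised peaks lay between 41.5 and 268 kb inside the gene, with changes from 0.68 to 1.40, and all were above 0 in each organ. The start-site peak of Ltbp1 was not called, with a change of 0.21 ± 0.07 (adjusted p = 0.0707).

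**Figure D3:**
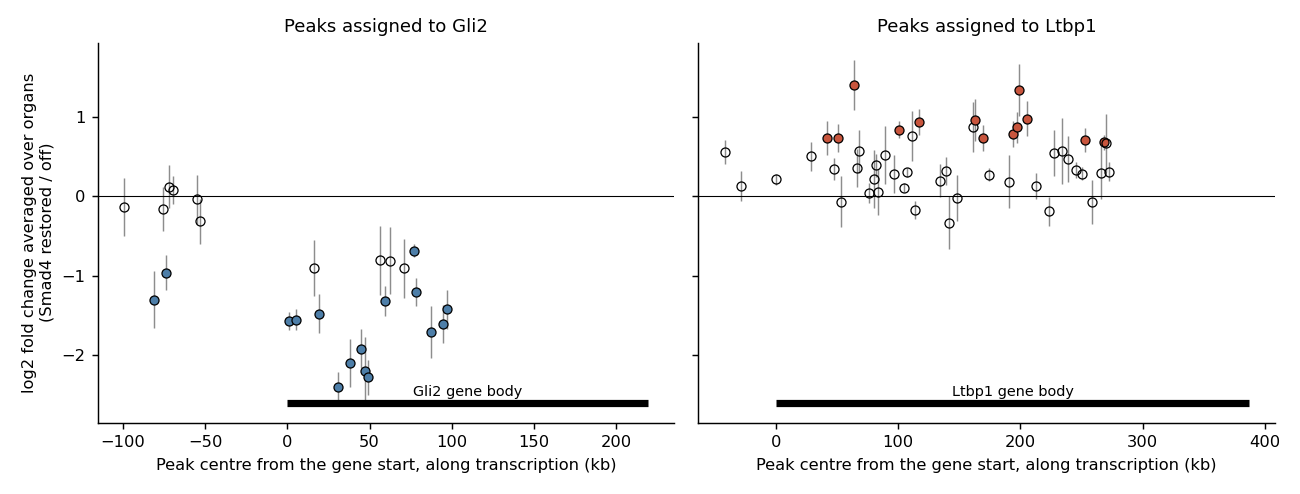
Average log2 fold change (Smad4 restored over off, error bars SE) of the 26 peaks assigned to Gli2 and the 49 assigned to Ltbp1, by distance of the peak centre from the start of the gene along its direction of transcription, in kb. Filled points were called; at Gli2 all 16 lie between −2.40 and −0.68 and at Ltbp1 all 13 lie between 0.68 and 1.40.

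Raised and lowered peaks differed in the motifs they held. The motif of AP-1 (FOS and JUN family dimers), TGANTCA, was in the central 300 bases of 34.1% of all peaks, of 61.3% of raised peaks (3026 of 4938, exact binomial 95% interval 59.9% to 62.6%) and of 12.8% of lowered peaks (524 of 4105, 11.8% to 13.8%). The intervals cover counting error only. The RUNX motif TGTGGT was in 26.98% of all, 35.1% of raised and 24.1% of lowered peaks. AP-1 and RUNX motifs were both present in 9.45% of all, 21.3% of raised and 2.80% of lowered peaks. The AP-1 share of raised peaks was similar in 3 equal classes of peaks by GC content (61.1%, 62.2% and 59.8%, against 42.8%, 36.6% and 22.8% of all peaks in those classes). Under the 31 other fits it stayed between 50.7% and 62.7% for raised and between 11.5% and 17.6% for lowered peaks.

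The SMAD palindrome GTCTAGAC was rare, in 447 peaks (0.327%). It was in 50 raised peaks (1.01%) and in none of the 4105 lowered peaks, which allows a share of up to 0.0731%. That 0 holds for these calls and the central 300 bases: over whole peaks it was in 84 raised (1.70%) and 10 lowered peaks (0.244%), against 0.905% of all, and under the 31 other fits the central share was 0.678% to 1.89% of raised and 0 to 0.143% of lowered peaks. Of the peaks that held it, 11.2% were called higher, compared with 3.59% of those that did not. The Caprin1 peak shown above (chr2:103869885-103870686), which holds it, had 66.6, 91.1 and 61.1 normalised counts in Panc_OFF and 96.0, 123 and 195 in Panc_ON, 19.7 and 9.75 in Liv_OFF and 54.7 and 56.9 in Liv_ON, and 65.4, 33.7 and 83.6 in Lung_OFF and 135, 169 and 180.1 in Lung_ON. It rose by 1.42 ± 0.22 on the log2 scale (adjusted p = 0.0044). The GC-rich SMAD element GGCGCC was less frequent in both sets, in 3.74% of all, 0.749% of raised and 1.68% of lowered peaks, and in 1.84% of all peaks outside promoters.

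Motifs of endodermal and epithelial factors were more frequent in lowered peaks. The HNF4 motif CAAAGTCCA was in 1.04% of all, 2.53% of lowered and 0.425% of raised peaks, and HNF1 (GTTAATNAT) in 1.41%, 2.66% and 1.22%. FOX (TGTTTAC) was in 6.15% of all, 9.33% of lowered and 4.90% of raised peaks, and ETS (AGGAAGT) in 10.6%, 14.7% and 8.10%. The E-box bound by SNAIL and ZEB proteins (CAGGTG) was in 18.8% of all, 25.2% of lowered and 13.9% of raised peaks. The motif of GATA factors, AGATAA, was in 17.0%, 21.1% and 18.2%, and TEAD (GGAATG) in 20.1%, 23.0% and 21.0%. KLF (CCNCNCCC) was in 28.4% of all peaks, 28.5% of lowered and 19.0% of raised peaks. Outside promoters the KLF shares were 24.9%, 27.8% and 18.9% in the same order. Under GC correction KLF was in 24.1% of lowered and 21.8% of raised peaks, so that its place in lowered peaks depends on the background. The HNF4 share of lowered peaks was above that of all peaks in 30 of 31 other fits; the exception was the fit without the liver (0.940%). The HNF4-bearing Slc39a11 peak shown above, 3178 bp from the start of this zinc transporter gene, changed by −0.78 ± 0.17 (adjusted p = 0.0203), with means of 347 in Liv_OFF and 226 in Liv_ON, 123 in Lung_OFF and 67.8 in Lung_ON, and 67.7 in Panc_OFF and 37.4 in Panc_ON. A motif match is a string of letters and not a bound site.

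**Figure D4:**
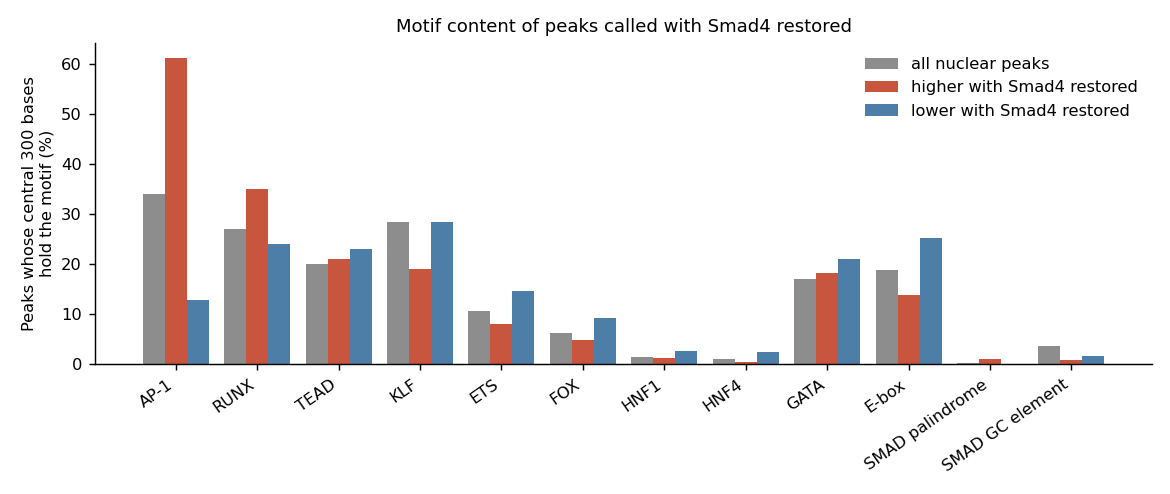
Share of peaks (%) whose central 300 bases hold each of 12 motifs, for all 136630 nuclear peaks (grey), the 4938 higher (red) and the 4105 lower (blue) with Smad4 restored. AP-1 is in 61.3% of raised and 12.8% of lowered peaks, against 34.1% of all.

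The motif level of a sample was the mean deviation (log2) of peaks with a motif from their mean over all samples, minus that of peaks without it. For AP-1 this was 0.080, −0.002 and 0.070 in Panc_OFF and 0.261, 0.249 and 0.573 in Panc_ON, and −0.764 and −0.625 in Liv_OFF and −0.212 and −0.428 in Liv_ON. It was 0.385, −0.122 and 0.038 in Lung_OFF and 0.262, 0.147 and 0.088 in Lung_ON, where the states overlapped. The SMAD palindrome level did not overlap in the lungs (−0.203, −0.318 and −0.183 against 0.027, 0.099 and −0.093) or the liver (−0.201 and −0.145 against 0.066 and 0.005), and overlapped in the pancreas (0.063, 0.175 and 0.085 against 0.166, 0.236 and 0.221). As restored minus off group means, the HNF4 level changed by −0.296 (pancreas), −0.300 (liver) and 0.014 (lungs). In the same order, HNF1 changed by −0.242, −0.137 and −0.017, and the E-box by −0.136, −0.110 and −0.014. FOX changed by −0.027, −0.091 and −0.058, and ETS by −0.054, −0.077 and −0.059.

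Gene lists were described by the called peaks nearest to their genes, beside 3.61% higher and 3.0% lower over all peaks. Without the liver or without the pancreas, none of the 19 lists had more than 3 raised peaks, and none had more than 2 lowered peaks except the Hedgehog list, with 12 without the liver and 13 without the pancreas. In the TGFβ family (26 ligands, receptors, binding proteins and Smads, 370 peaks), 25 peaks (6.76%) were higher and 14 (3.78%) lower. Ltbp1 alone, with 49 of the 370 peaks, held 13 of the 25 raised ones, so that the raised share rests largely on a single locus. Most raised ones lay near ligands and their stores, with 13 at Ltbp1 and 5 at Inhba, the activin A subunit, whose leading peak changed by 1.07 (pancreas), 1.92 (liver) and 0.61 (lungs) (adjusted p of the average = 0.0117). Of the lowered ones, 10 lay near receptors, with 3 each at Tgfbr3 and Acvr1b and 2 each at Tgfbr2 and Bmpr1b; the ligand gene Bmp2 also had 2. The Bmpr1b peak, in an intron, changed by −1.98 (pancreas −0.99, liver −2.75 and lungs −2.20), and the Tgfbr2 peak by −0.61. The lowered count was 5 without Liv_OFF_1, 8 without Liv_ON_1 and 9 without Lung_OFF_2.

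Among Smad feedback and direct target genes, 20 of 217 peaks (9.22%) were higher and 4 (1.84%) lower. The raised peaks were 5 at Pmepa1, a membrane inhibitor of TGFβ signaling, 3 each at Nog and Fst, secreted antagonists of BMP and activin, 3 at Tgif1, a corepressor of Smads, and 2 at Smad7, the inhibitory Smad. The leading Smad7 peak, 47457 bp from the start of the gene, changed by 0.86 (adjusted p = 0.00768) with no overlap in any organ. No start-site peak of these 5 genes was called; that of Fst changed by 0.37. Smad6 had 2 lowered peaks. The raised count was 9 without Liv_OFF_1 and 8 without Liv_ON_1.

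The 6 fibrogenic effectors were named by the study from the same tumor model, so that their direction is not independent evidence. Of their 71 peaks, 26 (36.6%) were higher and none lower, and each gene had at least 1: 9 at Ccbe1, 7 at Ccn4 (a matricellular protein), 4 at Has2 (hyaluronan synthase 2), 4 at Itga5 (the fibronectin receptor chain), and 1 each at Il11 and Col6a1. The leading Ccn4 peak changed by 1.47 (pancreas 0.93, liver 2.31 and lungs 1.16) and that of Itga5 by 1.05. Without Liv_ON_1 the count was 11. Of the other matrix genes, 21 of 230 peaks (9.13%) were higher and 4 lower, with 5 at Tnc (tenascin C), 4 each at Fn1 (fibronectin) and Col5a1, and 2 each at Ccn1, Ccn2 and Thbs1. The raised matrix count was 12 without Panc_OFF_1, 11 without Lung_OFF_2, 10 without Liv_OFF_1 and 3 without Liv_ON_1.

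Integrins and laminins had 17 of 279 peaks (6.09%) higher and 4 lower. Itgb3 had 6 raised peaks and Itgb1 3, the leading one at Itgb1 changing by 1.16 (adjusted p = 0.00276), while Lamb1 and Lamb2 had 2 and 1 lowered peaks. Leaving out Lung_OFF_1 gave 29 raised peaks, Lung_OFF_2 or Liv_ON_1 11 and Liv_OFF_1 8. EMT factors and mesenchymal genes had 11 of 169 peaks (6.51%) higher and 2 lower. Zeb1, a repressor of epithelial genes, had 3 and Cdh2 (N-cadherin) 3, with the leading Cdh2 peak at 1.74 (adjusted p = 0.0148) and no overlap in any organ. Snai1 and Snai2 had 1 raised peak each, and Zeb2 and Twist1 1 lowered peak each. The raised count was 4 without Liv_OFF_1, 2 without Liv_ON_1, 7 without Lung_ON_1, 7 without Panc_OFF_2, 18 without Lung_OFF_1 and 22 without Liv_ON_2.

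Epithelial genes had more lowered than raised peaks. Of 214 peaks near junction, keratin and epithelial regulator genes, 14 (6.54%) were lower and 1 (at Cldn4) higher. The lowered peaks were near 9 of 20 genes: 3 at Ehf, 2 each at Elf3, Grhl2 and Ovol2, and 1 each at Cdh1 (E-cadherin), Krt18, Cldn3, Tjp1 and Dsp. EHF and ELF3 are epithelial ETS factors; the leading Ehf peak changed by −0.86 (−1.30, −0.77 and −0.52 in pancreas, liver and lungs). The lowered count was 7 without Liv_OFF_1, 6 without Liv_ON_1 and 22 without Lung_OFF_1. Summed over all peaks of the list, the mean normalised count was 71867 in Panc_OFF and 55661 in Panc_ON. It was 172935 in Liv_OFF and 156930 in Liv_ON, but 85376 in Lung_OFF and 86361 in Lung_ON. Gastric and mucin genes had 10 of 71 peaks (14.1%) lower and 1 (at Ctse) higher. These were 3 at Muc4, 2 each at Muc5ac and Tff2, and 1 each at Muc13, Tff3 and Gkn1. The leading Muc4 peak changed by −1.36, with −1.26 (pancreas), −1.49 (liver) and −1.34 (lungs), and the start-site peaks of Muc5ac (−0.99) and Muc13 (−0.62) were called too. The Tff2 start-site peak, −0.84 on average, was at 0.14 in the lungs. The lowered count was 4 without Liv_OFF_1, 5 without Liv_ON_1, 6 without Lung_OFF_2 and 6 without Lung_ON_1. The summed mean of this list was 15030 in Panc_OFF and 12023 in Panc_ON, and 30138 in Liv_OFF and 23061 in Liv_ON. In the lungs it was 19116 in Lung_OFF and 19556 in Lung_ON.

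Endoderm and pancreatic transcription factors had 11 of 237 peaks (4.64%) lower and 4 higher. Among these genes, Gata4 had 4 lowered peaks, and Foxa1, Foxa2, Gata6, Onecut1, Sox9 and Hhex 1 each, while Sox9 had 3 raised peaks and Gata6 1. The lowered count ranged from 4 (without Liv_OFF_1) to 19 (without Lung_OFF_1) over the fits without 1 sample, and moved by over 1.5 times also without Liv_ON_1, Lung_OFF_2, Lung_ON_1, Lung_ON_2, Panc_OFF_1 or Panc_OFF_2. The summed mean of this list was 53289 in Panc_OFF and 46748 in Panc_ON, and 76881 in Liv_OFF and 67991 in Liv_ON. In the lungs it was 58542 in Lung_OFF and 59479 in Lung_ON. The Hedgehog list had 20 of 109 peaks (18.3%) lower and 3 higher, and 16 of the 20 were at Gli2. Ihh, a ligand of the pathway, had 2 and Gli3 and Ptch1 1 each. Ptch1, the receptor, also had 2 raised peaks. Without any single sample the lowered count stayed between 17 and 24. The Wnt pathway had 14 of 335 peaks (4.18%) lower and 6 higher, with 5 lowered at Wnt4, 3 at Fzd1 and 3 at Lrp6, which lies in the part of chromosome 6 where Lung_OFF_1 stood apart, and 2 raised at Wnt5a; the lowered count was 9 without Lung_OFF_2.

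The AP-1 subunits had 6 of 98 peaks (6.12%) in each direction, against 3.61% and 3.0% of all peaks: 3 raised at Jun, 2 at Fosl2 and 1 at Atf3, and 1 lowered each at Jun, Jund, Fos, Fosl1, Fosl2 and Atf3. Without Lung_OFF_1 there were 11 higher, 6 fits without 1 other sample left 2 or 3 lower, and under GC correction 4 were higher and 3 lower. RUNX factors had 4 of 112 peaks higher (3 at Runx1 and 1 at Runx2) and none lower, with 8 to 10 higher without Liv_OFF_2, Liv_ON_2 or Lung_OFF_1. KLF factors had 7 of 191 (3.66%) higher and 3 lower, and the 7 fell to 2 under GC correction and 3 under quantile normalisation, to 4 without the lungs, and to between 2 and 4 without Liv_OFF_1, Liv_ON_1, Lung_OFF_2, Lung_ON_1 or Panc_OFF_1. In the YAP and TEAD pathway 10 of 173 peaks were higher, 6 of them at Wwtr1, which encodes TAZ, and 3 were lower, all at Tead1, where the leading peak changed by −1.97 (limma adjusted p = 0.00136). The 10 were 3 without Liv_ON_1, 4 without Liv_OFF_1 and 6 without Liv_OFF_2 or Panc_OFF_1. The cell cycle and cytostatic list had 5 of 157 peaks in each direction (3.18%): 3 raised at Cdk6 and 1 each at Myc and Ccne1, and 2 lowered each at Cdkn1c and Ccnd3 and 1 at Cdc25a. Cdkn1c encodes the cell cycle inhibitor p57, and its leading lowered peak changed by −1.31. Each of these counts was 3 or less in most fits without 1 sample, and they were 8 and 11 without Lung_OFF_1. The 5 raised were 1 under GC correction, 2 under quantile normalisation, with a pseudocount of 10 or with organ plus status, and 3 with TMM factors or edgeR. The 5 lowered were 3 with a pseudocount of 10 and 8 with DESeq2. Of 240 peaks near MAPK feedback genes, 5 (2.08%) were higher and 8 (3.33%) lower. The Notch pathway had 8 (4.52%) higher and 3 (1.69%) lower of 177, and axon guidance genes had 6 (1.49%) higher and 11 (2.74%) lower of 402. These counts moved with single samples. The raised MAPK count was 3 without Liv_OFF_1, Liv_ON_1, Lung_OFF_2 or Lung_ON_1 and 9 to 12 without Liv_OFF_2, Liv_ON_2 or Lung_OFF_1, and the lowered one was 2 without Liv_OFF_1 or Liv_ON_1. The raised Notch count was 4 or 5 without Liv_OFF_1, Liv_ON_1, Lung_OFF_2, Panc_OFF_1, Panc_OFF_2 or Panc_ON_1, and the lowered one ranged from 0 (without Liv_ON_1) to 6 (without Lung_OFF_1). Axon guidance genes had 18 higher without Liv_ON_2 and 22 without Lung_OFF_1, and 5 lower without Liv_OFF_1, 7 without Liv_ON_1 or Lung_OFF_2 and 18 without Lung_OFF_1.

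**Figure D5:**
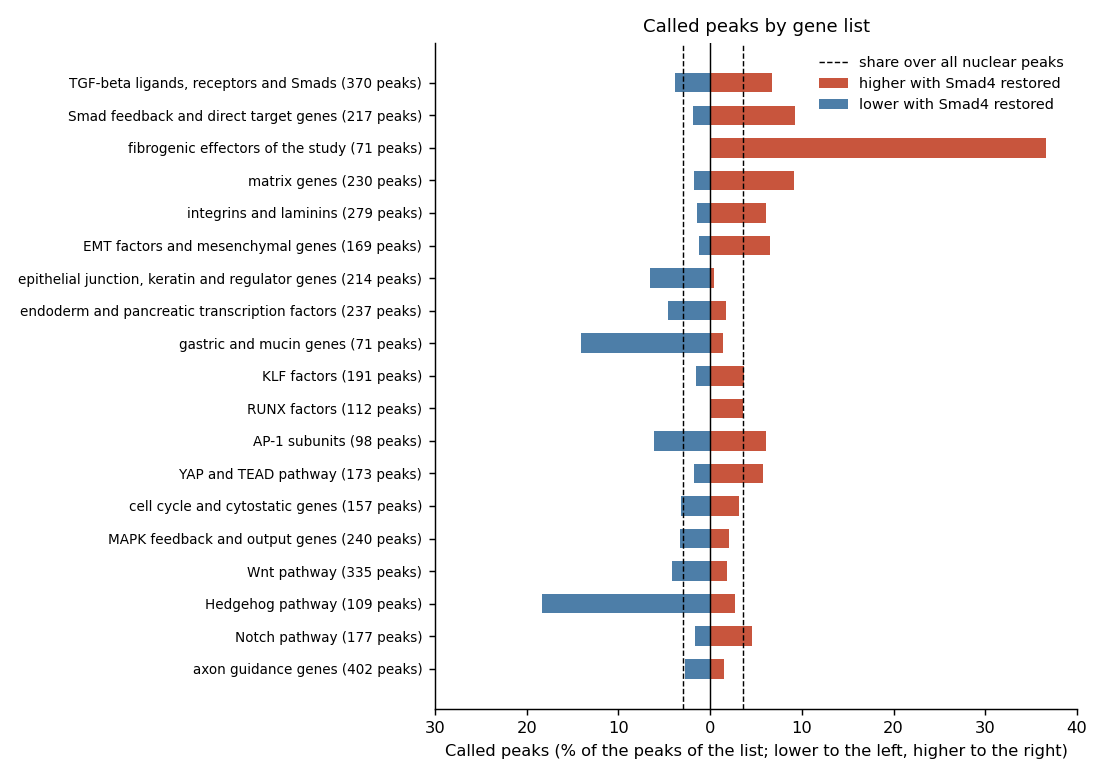
Called peaks as a percentage of the peaks assigned to each of 19 gene lists, higher with Smad4 restored to the right (red) and lower to the left (blue); dashed lines mark the shares over all nuclear peaks, 3.61% and 3.0%. The fibrogenic effectors named by the study (36.6%) reach farthest to the right and the Hedgehog list (18.3%, mostly Gli2) farthest to the left.

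Markers of other cell types were examined for admixture to the sort. Defining markers without any assigned peak were Apoa2, Fgb and Cyp2e1 of hepatocytes, Sftpc and Sftpa1 of lung epithelium, and Cd3e and Cd79a of lymphocytes. Over all peaks, 3.61% were higher and 3.0% lower. Near hepatocyte markers 5 of 51 peaks (9.80%) were lower and 1 (1.96%) higher, and near lung epithelium markers 1 of 45 (2.22%) was lower. Near acinar markers 2 of 26 (7.69%) were lower, and near fibroblast markers 2 of 87 (2.30%) went each way. Near endothelial markers 5 of 58 (8.62%) were higher, and near leukocyte markers 2 of 25 (8%) were lower. Near tumor epithelium markers 3 of 76 (3.95%) went each way. The summed endothelial level ranged from 6543 to 6991 in Panc_OFF and 6874 to 7920 in Panc_ON, from 3801 to 4375 in Liv_OFF and 4585 to 5033 in Liv_ON, and from 5026 to 6851 in Lung_OFF and 5920 to 6900 in Lung_ON. The acinar sum was lower with Smad4 restored in each organ, at 2121 to 2270.3 against 2446 to 2612 in the pancreas, 2657 to 2699 against 3061 to 3437 in the liver and 2180 to 2452 against 2620 to 2791 in the lungs. The leukocyte sum was lower in the lungs (1738 to 1822 against 2007 to 2158) and overlapped in the pancreas and the liver. The tumor epithelium sum was lower in the pancreas (30165 to 35735 against 38163 to 43055) and overlapped in the lungs (47976 to 52410 against 40100.2 to 56985) and in the liver (67222 to 85769 against 85725 to 85975). The hepatocyte sum overlapped in each organ, at 5714 to 6462 in Liv_ON against 6304 to 6831 in Liv_OFF, and so did the lung epithelium sum, at 12802 to 15646 in Lung_ON against 11646 to 13419 in Lung_OFF. The fibroblast sum overlapped between the states in each organ. It was highest in the pancreas, at 9980 to 16228 in Panc_ON against 10403.5 to 14465 in Panc_OFF. The range was 5317 to 6326 in Liv_ON against 5519 to 5825 in Liv_OFF, and 6272 to 6809 in Lung_ON against 5743 to 7292 in Lung_OFF. The part of other cells in the list counts was not tested.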

How the data were processed

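ATAC-seq was measured in sorted mKate2+ tumor cells from 16 mice in 6 groups of organ and Smad4 status. The deposited table holds a normalised count (a signal: reads per peak divided by a DESeq2 size factor) for 136631 peaks. Per the processing notes and methods, the authors trimmed reads, used Bowtie2 and mm10 for alignment and MACS2 for peaks (p ≤ 0.001), removed blacklisted regions, merged peaks within 500 bp, counted with featureCounts and normalised with DESeq2. Removal of duplicates and any shift for the transposase are not given in the sources used here. All values were whole multiples of 1 read within 0.01, so that reads were recovered for count tests. The recovered depth was 22495044 to 37510981 reads in peaks per sample, which bounds the precision at weak peaks.

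Values were tested as log2(normalised count + 1) with limma (3.58.1, R 4.3.3; robust fit with a mean-variance trend, 6 group means, equal-weight mean of the 3 organ differences), with Benjamini-Hochberg adjustment over 136630 nuclear peaks. A fold change on this scale understates that of weak peaks. edgeR 4.0.16 and DESeq2 1.42.0 on the recovered reads were alternatives, beside other normalisations, filters, pseudocounts, thresholds, a GC correction, a replicate block and the omission of each sample, organ and distal chromosome 6. The script was tested on simulated counts. Samples of a group were separate mice.

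Peaks were assigned to the nearest protein-coding start site within 100 kb. Named peaks were the 12 of smallest p in each direction, 1 per gene, among called peaks without overlap between states in any organ and outside distal chromosome 6. Named loci were the 5 genes with most called peaks in each direction, with ties. The members, lists and motifs were chosen with earlier results of these data known. Motifs were matched as exact letters on both strands of the central 300 bases; sequences come from GRCm38.p6. Matches of different motifs may overlap. Mouse numbers were shared between states, though each sample came from its own mouse. Between samples of the same number, the correlations of deviations were −0.33, 0.03 and −0.33 in the pancreas and 0.08 and 0.08 in the liver. They were 0.49, 0.12 and 0.21 in the lungs. The liver values are equal by construction. Samples of unlike numbers were not compared, so that these values do not show a pairing in any organ. Some alleles and genes are not reported here.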

Additional observations from a re-analysis of the deposited data

How the results depend on the processing

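The count of called peaks, 9043, was 3774 without Liv_OFF_1, 3513 without Liv_ON_1, 16283 without Lung_OFF_1 and 5313 without Lung_OFF_2; the lowest and highest over the 16 samples left out singly were 3513 and 16283. It was 425 without the liver, 476 without the pancreas and 14394 without the lungs. Each fit without an organ had fewer samples, including the fit without the lungs, where the count rose. At a log2 fold change of 1 and adjusted p of 0.05 the count was 1666. Under the other settings it lay between 6275 (pseudocount of 10) and 11383; edgeR gave 8697 and DESeq2 10709. Raised calls outnumbered lowered ones (4938 to 4105), but the order turned under GC correction (3760 to 4503), quantile normalisation (3824 to 4225), the replicate block with GC correction (4175 to 4615) and organ plus status (3657 to 3738), without the liver (106 to 319), and without Liv_ON_1 (1540 to 1973), Panc_ON_2 (4222 to 4422) or Lung_ON_2 (3409 to 3480). With a replicate block the count was 9890, and where only the lungs were blocked, a fit chosen after seeing the data, 11383. The block changed no call of a named peak. The count of peaks without overlap, 1615, can only stay or rise when a sample is left out. It ranged from 1748 to 6032 over single samples left out, with 6032 without Lung_OFF_1, 2507 without Lung_OFF_3 and 2746 without Lung_ON_3. The promoter share difference, −1.75 points, ranged from −1.42 to −2.04, with p = 0.0608 (exact permutation test) without Lung_OFF_2. Of 744 values of named peaks under the alternatives, 736 stayed called, 8 kept their direction but were not called and 0 reversed. The named peaks were picked by smallest p and lack of overlap in these same samples, which favors this outcome. The tally therefore does not speak for the other called peaks. Of 1664 list counts, 1179 stayed within 1.5 times. The cause of these shifts was not tested. Whether depth (a median of 36 to 76 reads per peak) limited the calls was not tested either.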
